A study of Mus musculus with 12 samples.

Results

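DNA replication and cell cycle genes were examined in eosinophils of the mouse small intestine (SI). The 52 genes were chosen by symbol: a gene entered if its row of the expression table carried 1 of 52 listed symbols. All 52 were found among the 36047 genes of the table, of which 26372 had a symbol. They were read in 6 role groups, namely 16 licensing and origin genes, 15 fork proteins and polymerases, 3 nucleotide supply genes, 6 S and M phase markers, 8 G1 genes, and 4 inhibitors of cyclin-dependent kinases (CDKs).

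RNA was sequenced from eosinophils that had been sorted into 3 subsets by the surface proteins α4β7, an integrin of gut homing cells, and CD22, an inhibitory lectin. The subsets were α4β7+, α4β7− CD22−, and CD22+, which are regarded as younger, intermediate, and older in the tissue. Each subset had 4 libraries, and each library was made from the proximal SI lamina propria of 2 pooled mice. All mice were wild type C57BL/6J, aged 6 to 12 wk, and the samples are labelled female although the methods name both sexes. The gate kept viable CD45+ CD11b+ SiglecF+ cells and left out those with MHCII or Ly6G, so a group is defined by surface proteins and not by a genetic label.

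A cell that divides first loads the MCM helicase onto origins of replication, which is called licensing and is done by the origin recognition complex with Cdc6 and Cdt1. In S phase the helicase is activated, polymerases copy the DNA, and ribonucleotide reductase and thymidylate synthase supply the building blocks, after which Cdk1 with cyclins A and B drives the cell into mitosis. D cyclins with Cdk4 open this sequence by releasing E2f factors from Rb1, and the CDK inhibitors hold it closed. Eosinophils leave the bone marrow as mature cells that are regarded as postmitotic, so the genes were read here for what such cells still express and for what differs between subsets.

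The libraries held between 14286474 and 16915755 normalized counts in all, with 19760 to 21960 genes above 0, and 1 read was worth an estimated 0.852 to 1.16 normalized counts. The totals did not overlap between subsets, at 15783607 to 16915755 in α4β7+, 15011473 to 15740374 in α4β7− CD22−, and 14286474 to 14758267 in CD22+. Siglecf, the eosinophil lectin of the gate, lay between 6884 and 8594 in the 12 libraries, and the gate genes followed the labels: Itgb7, the β7 chain, was highest in α4β7+ libraries and Cd22 in CD22+ libraries. RNA of other cells was present. The 10 epithelial markers found of 11 listed summed to between 3076 and 8749, and 8 B and plasma cell markers to between 11605 and 36927, with overlap between all subsets. The 5 Paneth cell markers summed to 178 to 439 in α4β7+, 77.9 to 345 in α4β7− CD22−, and 194 to 1436 in CD22+ libraries, the highest in CD22+ replicate 3, with Defa30 called higher in CD22+ than in α4β7+. The 8 T and innate lymphoid cell markers summed to 1095 to 1782 in α4β7+, 713 to 1053 in α4β7− CD22−, and 1089.8 to 1541 in CD22+ libraries, with Cd3e, Cd8a, and Il7r called lower in α4β7− CD22− than in α4β7+. The 10 macrophage and dendritic cell markers summed to 5478 to 7710 in α4β7+, 5514 to 8801 in α4β7− CD22−, and 5172 to 11486 in CD22+ libraries, with overlap, and of these Cd68 was called higher in both comparisons with α4β7+. The 6 myeloid progenitor markers summed to 679 to 1023, 355 to 436, and 265 to 375, so α4β7+ stood apart. Most of this sum was Cd34, which was called lower in both later subsets (log2 fold change −1.56 and −2.03), Kit was not called, Elane was listed at 0 in every library, and Mpo, Prtn3, and Ctsg were too low to be tested. The 4 mast cell markers other than Kit summed to 10.2 at most. The sum of 7 neutrophil markers was 14415 to 22048 in α4β7+, 5890 to 7926 in α4β7− CD22−, and 2728 to 3530 in CD22+ libraries, almost all of it Retnlg, while S100a8 was listed at 0 in all libraries but 1. The 9 eosinophil markers summed to 64989 to 79792, 45799 to 51681, and 33680 to 35581.

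Promoter sequences were read from RefSeq (GRCm38.p6), as 250 bases before and 50 bases after each start site, and 43 of the 52 members had an entry. The letters TTTCCCGC, TTTCGCGC, TTTGCCGC, and TTTGGCGC, which E2f factors are known to bind, were searched on both strands, and matches of the 2 strands may overlap. They stood in 2.3% of all 32851 promoters of this length and in at least 1 promoter of 2.6% of the 27025 genes of the table. Of the 13 licensing genes with a promoter 8 held them, namely Orc1, Orc3, Cdc6, Cdt1, Mcm3, Mcm5, Mcm6, and Mcm7, as did 4 of 13 fork genes, 1 of 5 S and M phase genes (Cdk1), 1 of 5 G1 genes (Cdk2), and none of the 3 nucleotide supply genes or the 4 CDK inhibitors. The stretches before the start sites of Mcm5, Pola1, and Mcm6 are shown because Mcm5 was called higher in both later subsets, Pola1 in α4β7− CD22− but not in CD22+, and Mcm6, which holds the most matches, was not called. The E2F letters are in capitals, Pola1 carries them as the reverse complement, and the run in Mcm5 and the first run in Mcm6 each hold a pair of overlapping matches. The positions were chr8:75109329-75109508 on the plus strand, chrX:93632156-93632335 on the minus strand, and chr1:128359706-128359885 on the minus strand.
Mcm5: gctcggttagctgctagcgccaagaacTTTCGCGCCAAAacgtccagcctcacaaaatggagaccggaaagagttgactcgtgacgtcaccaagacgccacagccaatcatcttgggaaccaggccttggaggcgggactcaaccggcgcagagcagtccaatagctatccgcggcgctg
Pola1: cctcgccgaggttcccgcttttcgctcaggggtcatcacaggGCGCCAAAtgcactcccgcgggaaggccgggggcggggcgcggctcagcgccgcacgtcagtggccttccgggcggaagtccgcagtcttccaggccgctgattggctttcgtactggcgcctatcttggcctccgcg
Mcm6: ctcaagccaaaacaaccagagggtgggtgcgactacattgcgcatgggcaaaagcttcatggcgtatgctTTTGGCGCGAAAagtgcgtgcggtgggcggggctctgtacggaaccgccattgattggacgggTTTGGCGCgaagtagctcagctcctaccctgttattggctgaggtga

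Many mitotic genes carry another element, the cell cycle homology region (CHR), here searched as TTTGAA and TTCGAA on both strands. These letters stood in 19.2% of all promoters, in at least 1 promoter of 21.7% of genes, and in 4 of the 5 S and M phase members with a promoter, namely Mki67, Top2a, Ccnb2, and Cdk1. The CCAAT box, which often lies beside them, stood in 37.4% of all promoters, in at least 1 promoter of 41.1% of genes, and in all 5 of these members. It was not particular to them, since it stood in 29 of the 43 members with a promoter (67.4%), with 9 of 13 licensing genes and 3 of 4 CDK inhibitors among them. Mki67, Top2a, and Cdk1 are shown because no gene of this group was called in any comparison, and the CHR letters are in capitals, in the last run of Top2a as the reverse complement. The E2F letters of Cdk1, which also lie in the stretch shown, are left in lower case. The stretches lie on the minus strand at chr7:135716380-135716559, chr11:99024190-99024369, and chr10:69352939-69353092, and for Cdk1 the last 26 bases before the start site, which lie in an annotated exon, were left out.
Mki67: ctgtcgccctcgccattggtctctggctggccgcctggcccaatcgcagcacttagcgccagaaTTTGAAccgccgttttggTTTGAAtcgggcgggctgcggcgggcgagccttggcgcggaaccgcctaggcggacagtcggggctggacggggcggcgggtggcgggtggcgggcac
Top2a: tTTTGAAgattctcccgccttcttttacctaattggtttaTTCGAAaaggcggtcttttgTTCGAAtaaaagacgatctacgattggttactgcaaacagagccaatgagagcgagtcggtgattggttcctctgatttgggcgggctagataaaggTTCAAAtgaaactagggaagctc
Cdk1: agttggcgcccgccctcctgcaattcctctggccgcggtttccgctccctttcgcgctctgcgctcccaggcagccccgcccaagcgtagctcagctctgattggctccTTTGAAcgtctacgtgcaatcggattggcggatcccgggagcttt

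Mcm5, a subunit of the replicative helicase, Prim1, a primase subunit, and Ccnd2, a D cyclin, were higher in both later subsets than in α4β7+ eosinophils, and Cdkn1a and Cdkn2d, 2 CDK inhibitors, were lower in CD22+. Calls required a fold change of 1.5 or more together with an adjusted p of 0.05 or less, by limma on log2(normalized count + 1) with Benjamini-Hochberg adjustment over the 15249 genes that passed a filter on low values. All 52 members passed it. In α4β7− CD22− against α4β7+, 6 members were called higher (Mcm5, Rfc3, Pola1, Prim1, Rrm1, and Ccnd2), where 3.70% of all genes were. None was called lower, where 4.35% of all genes were, and 3 were lower at an unadjusted p under 0.05 by limma, against 13.5% of all genes. In CD22+ against α4β7+, 7 members were called higher (Orc5, Orc6, Mcm2, Mcm5, Mcm7, Prim1, and Ccnd2), where 5.60% of all genes were, and 2 were called lower (Cdkn1a and Cdkn2d), where 6.39% were. Without α4β7− CD22− replicate 4, only Mcm5 and Ccnd2 of the 6 higher calls were kept, and Mcm4 was called in addition. In CD22+ rescaling to the 75th percentile gave 11 higher calls, with Mcm4, Rfc3, Rfc5, and Rrm1 added. The sums of neutrophil, eosinophil, and myeloid progenitor markers given above also separated α4β7+ from the later subsets, and their part in these counts was not tested.

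The median log2 fold change of the 52 members was 0.17 in α4β7− CD22− and 0.18 in CD22+ against α4β7+, beside 0.0030 and 0.014 over all genes tested. Libraries did not overlap and were higher for 9 members in α4β7− CD22− and for 11 in CD22+, where 8.96% and 11.0% of all genes behaved so. They did not overlap and were lower for 3 and 2 members, where 9.80% and 11.8% of all genes did. Both comparisons share the same 4 α4β7+ libraries, so a gene that stands high or low in those libraries moves in both. The p-values measure the spread between libraries of pooled mice, and in sorted bulk RNA a change in the share of cells that express a gene cannot be told apart from a change of RNA per cell. In all, 12 members were called in at least 1 comparison, 3 of them (Mcm5, Prim1, and Ccnd2) higher in both, and 40 in none. Of all genes tested, 13.4% were called in at least 1 of the 3 comparisons and 3.09% were called higher in both later subsets.

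**Figure D1:**
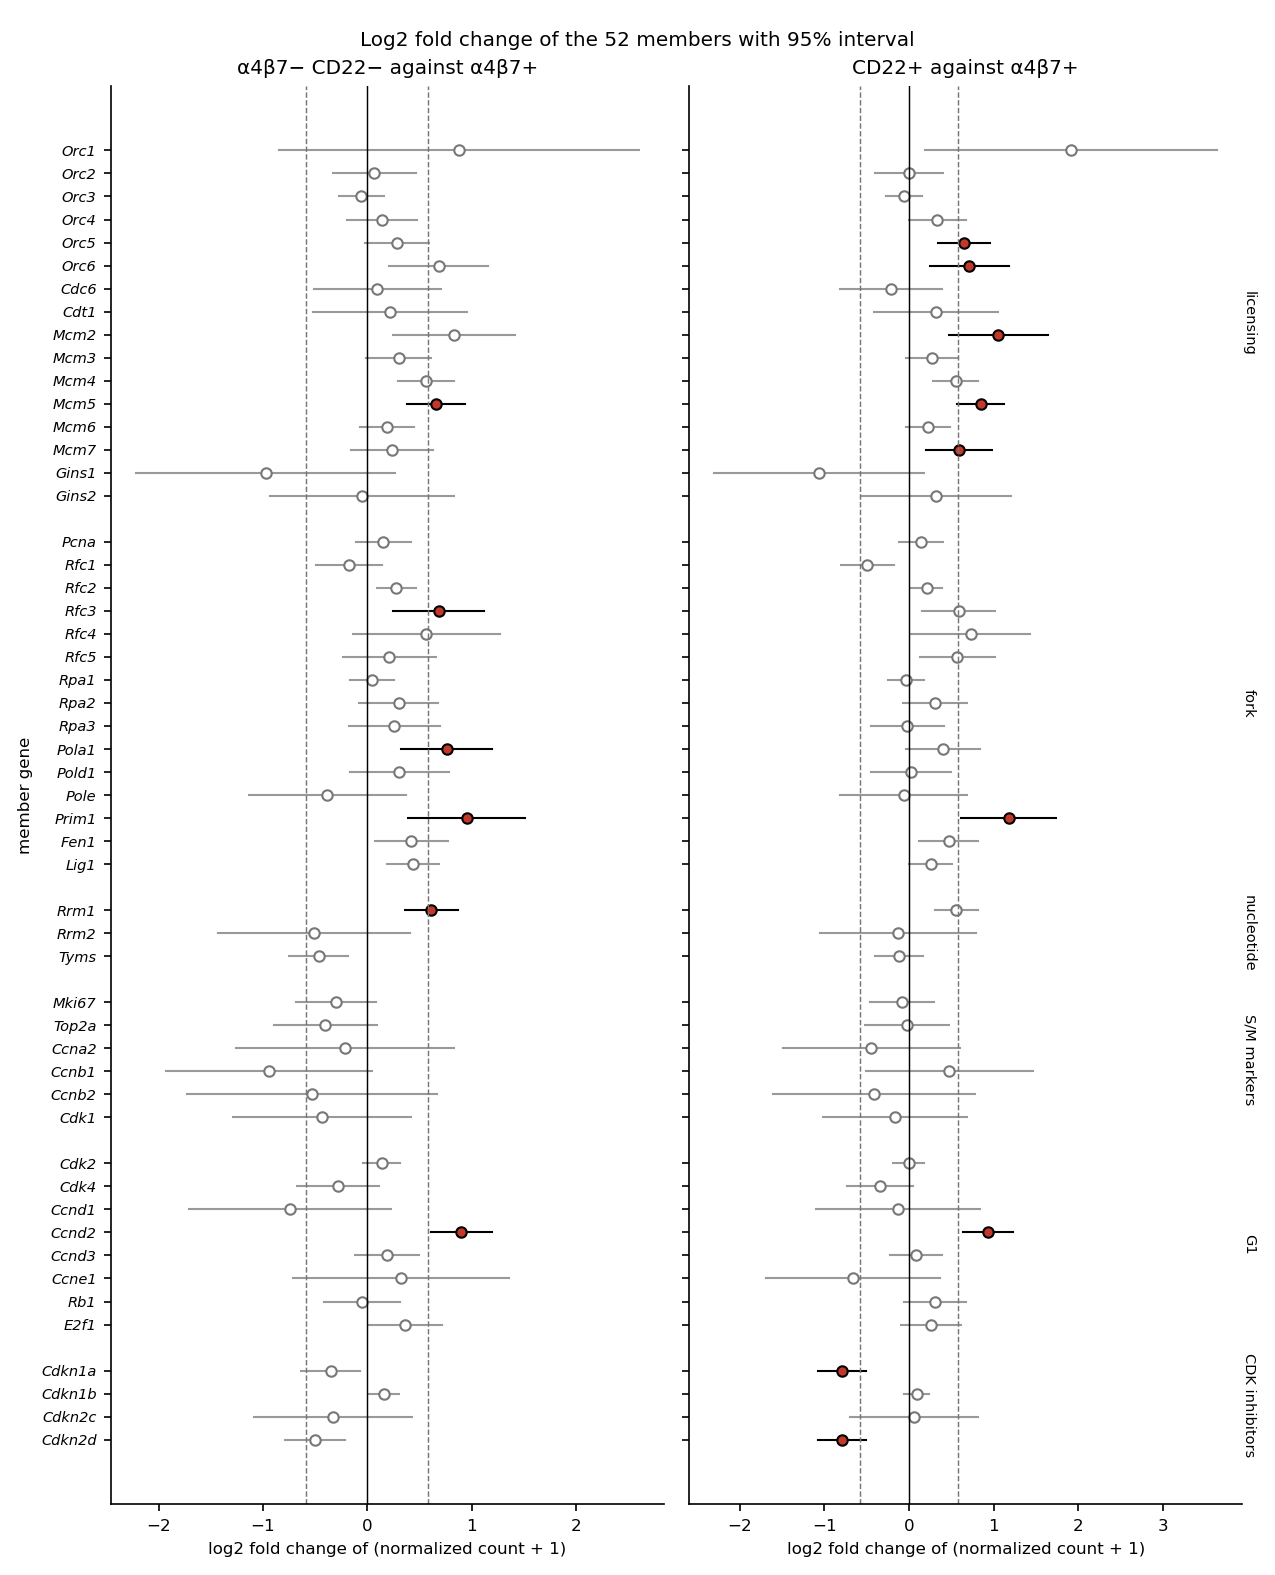
Log2 fold change of (normalized count + 1) of the 52 members in α4β7− CD22− (left) and CD22+ (right) against α4β7+, grouped by role, with bars for the 95% interval. Red points are called members and dashed lines mark a fold change of 1.5. The 6 and 7 members called higher lie among the licensing, fork, nucleotide supply, and G1 genes, the 2 called lower are CDK inhibitors, and the S and M phase group holds no red point.

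Of the 16 licensing and origin genes, 1 was called higher in α4β7− CD22− and 5 in CD22+ against α4β7+, where 3.70% and 5.60% of all genes were. None was called lower, where 4.35% and 6.39% of all genes were. In a group of this size 1 higher call and no lower call are near the background, and the higher counts moved with single libraries. In α4β7− CD22− the 1 call became 4 without α4β7+ replicate 2 (Orc6, Mcm2, and Mcm4 joined Mcm5), 3 without α4β7+ replicate 4, and 2 without α4β7− CD22− replicate 1, 3, or 4. Some other pseudocounts, filters, and scalings also added Orc6 or Mcm2 there. In CD22+ the 5 calls became 3 without α4β7+ replicate 1 or 3 or CD22+ replicate 2 or 3, since Orc6 and Mcm7 were lost in each case. Their median log2 fold change was 0.23 and 0.33. Summed over the 16 genes, the level was 3721, 4188, 3556, and 4134 normalized counts in the α4β7+ libraries, 4845, 5108, 4487, and 4818 in α4β7− CD22−, and 4926, 5479, 5188, and 5175 in CD22+. Every α4β7+ library lay below every library of the other subsets, which overlapped each other.

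Mcm2 to Mcm7 encode the 6 subunits of the ring-shaped replicative helicase. All 6 had a positive log2 fold change in both comparisons, with a median of 0.43 and 0.57, and 1 and 3 of them were called. Of all genes, 50.4% and 51.5% had estimates above 0 and 3.70% and 5.60% were called higher, so that 1 call among 6 genes is near the background. Mcm5 (chr8:75109569-75128439, GRCm38) was at 235, 259.8, 268, and 292 normalized counts in the α4β7+ libraries, 404, 524, 336, and 415 in the α4β7− CD22− libraries, and 479, 489.9, 487, and 441 in the CD22+ libraries. The α4β7+ libraries were all lower than the 8 others, and Mcm5 rose by 0.66 (SE 0.13, adjusted p = 0.00298) on the log2 scale in α4β7− CD22− and by 0.85 (SE 0.13, adjusted p = 0.000221) in CD22+. Without α4β7− CD22− replicate 2, its highest library, the former was 0.54 and under the fold threshold.

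Mcm2 (chr6:88883474-88898780) was at 114, 237, 98.1, and 262 normalized counts in the α4β7+ libraries, 359, 221, 330.3, and 268 in the α4β7− CD22− libraries, and 304, 337, 378, and 339 in the CD22+ libraries. The α4β7+ libraries split into 2 low and 2 high values, all under the lowest CD22+ library and overlapping the α4β7− CD22− libraries. Mcm2 rose by 1.05 (SE 0.27, adjusted p = 0.0124) in CD22+, a 2.08-fold change, and was at 0.83 (SE 0.27, adjusted p = 0.0568) in α4β7− CD22−, which was not called. That comparison passed when α4β7+ replicate 2 (1.01), α4β7+ replicate 4 (1.06), or α4β7− CD22− replicate 2 (0.96) was left out. It also passed by limma with a filter at 50 normalized counts (adjusted p = 0.0459).

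Mcm4 was the most abundant MCM gene per length. It was at 651, 682, 503, and 739 normalized counts in the α4β7+ libraries, 984, 1099, 851, and 849 in the α4β7− CD22− libraries, and 993, 1021, 897, and 844 in the CD22+ libraries. The α4β7+ libraries were again lower than the 8 others, and the log2 fold changes were 0.56 (SE 0.13, adjusted p = 0.007) and 0.55 (SE 0.13, adjusted p = 0.00502), which passed on p and missed the fold threshold at 1.47-fold in each. Mcm4 was called in α4β7− CD22− without α4β7+ replicate 2 or 4 or α4β7− CD22− replicate 3 or 4 (log2 fold change 0.59 to 0.63), and in CD22+ without α4β7+ replicate 2 or 4 or CD22+ replicate 4 (0.59 to 0.62). Of the transcript, 71.2% was shared with Gm9577 at 90% identity or more, a gene listed at no more than 3.11 normalized counts.

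Mcm7 (chr5:138164583-138172422) was at 292, 305, 293, and 255 normalized counts in the α4β7+ libraries, 376, 395, 227, and 382 in the α4β7− CD22− libraries, and 331, 461, 409.6, and 548 in the CD22+ libraries. All CD22+ libraries exceeded the α4β7+ libraries, while α4β7− CD22− replicate 3 was the lowest of all. Mcm7 rose by 0.59 (SE 0.18, adjusted p = 0.0333) in CD22+, just over the fold threshold, and was at 0.24 (SE 0.18, adjusted p = 0.455) in α4β7− CD22−. The call in CD22+ was lost without α4β7+ replicate 1, 3, or 4 or CD22+ replicate 2, 3, or 4, where the adjusted p lay between 0.0506 and 0.101 and the log2 fold change between 0.47 and 0.61. The transcript shares 72.8% with Gm5487, which was listed at up to 9.03, and the gene overlaps Ap4m1 and Cops6.

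Mcm3 and Mcm6 were not called. Mcm3 was at 307, 383, 244, and 364 normalized counts in the α4β7+ libraries, 395, 454, 367, and 365 in the α4β7− CD22− libraries, and 355, 374, 453, and 368 in the CD22+ libraries. Mcm6 was at 338, 449, 375, and 379.7 normalized counts in the α4β7+ libraries, 469, 428, 397, and 457 in the α4β7− CD22− libraries, and 391, 411, 487, and 521 in the CD22+ libraries. The subsets overlapped for both genes, and the log2 fold changes in CD22+ against α4β7+ were 0.27 (95% interval −0.04 to 0.58) for Mcm3 and 0.23 (95% interval −0.032 to 0.49) for Mcm6.

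The origin recognition complex marks the site where the helicase is loaded. Orc5 (chr5:22486485-22550429) was at 189, 196, 196, and 147 normalized counts in the α4β7+ libraries, 218, 249.9, 199, and 215 in the α4β7− CD22− libraries, and 325, 307, 273, and 238 in the CD22+ libraries. No α4β7+ library reached the libraries of either other subset, and the α4β7− CD22− and CD22+ libraries overlapped at their ends. Orc5 rose by 0.65 (SE 0.14, adjusted p = 0.00454) in CD22+ and was at 0.28 (SE 0.14, adjusted p = 0.228) in α4β7− CD22−. Without α4β7+ replicate 4 the rise was 0.55 and without CD22+ replicate 1 it was 0.58, both under the fold threshold.

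Orc6 (chr8:85299632-85308278), which overlaps Vps35, was at 83.1, 117, 52.4, and 90.9 normalized counts in the α4β7+ libraries, 109.6, 144, 139.6, and 142 in the α4β7− CD22− libraries, and 119, 129.7, 158, and 141 in the CD22+ libraries. The CD22+ libraries all lay above α4β7+, and α4β7− CD22− replicate 1 lay below α4β7+ replicate 2. Orc6 rose by 0.72 (SE 0.22, adjusted p = 0.0314) in CD22+, and in α4β7− CD22− its value of 0.68 (SE 0.22, adjusted p = 0.051) fell just short on p. The call in CD22+ was lost without α4β7+ replicate 1 or 3 or CD22+ replicate 2, 3, or 4 (adjusted p 0.0547 to 0.0854), and the other comparison was called without α4β7+ replicate 2 (log2 fold change 0.85) or α4β7− CD22− replicate 1 (0.78). With all libraries it was also called by limma with a pseudocount of 0.1 (adjusted p = 0.04999) or a filter at 50 normalized counts (0.0431). The same held after 75th percentile rescaling (0.0425) or quantile normalization (0.0396).

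The other origin genes were not called in any comparison. Orc2, Orc3, and Orc4, further subunits of the complex, had means between 257 and 627 normalized counts, and the log2 fold change in CD22+ was −0.058 (95% interval −0.27 to 0.16) for Orc3 and 0.33 (95% interval −0.002 to 0.67) for Orc4. Orc1, the subunit that cells degrade and remake in each cycle, ranged from 2.57 to 110.4, and its largest value, in CD22+ replicate 4, compares with 32.2 in the next library. Its log2 fold change in CD22+ of 1.92 (95% interval 0.19 to 3.64) did not pass the test. Cdc6 and Cdt1, the loaders of the helicase, had group means of 28.3 ± 4.63, 30.4 ± 5.49, and 24.3 ± 3.92 (SD, n = 4) for Cdc6 and 114 ± 35.0, 132 ± 37.3, and 154 ± 78.3 for Cdt1. Gins1 and Gins2, parts of the complex that activates the helicase, lay under 22 and under 124 in every library, and the log2 fold change of Gins1 was −0.97 (95% interval −2.21 to 0.26) in α4β7− CD22− and −1.06 (95% interval −2.30 to 0.17) in CD22+.

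**Figure D2:**
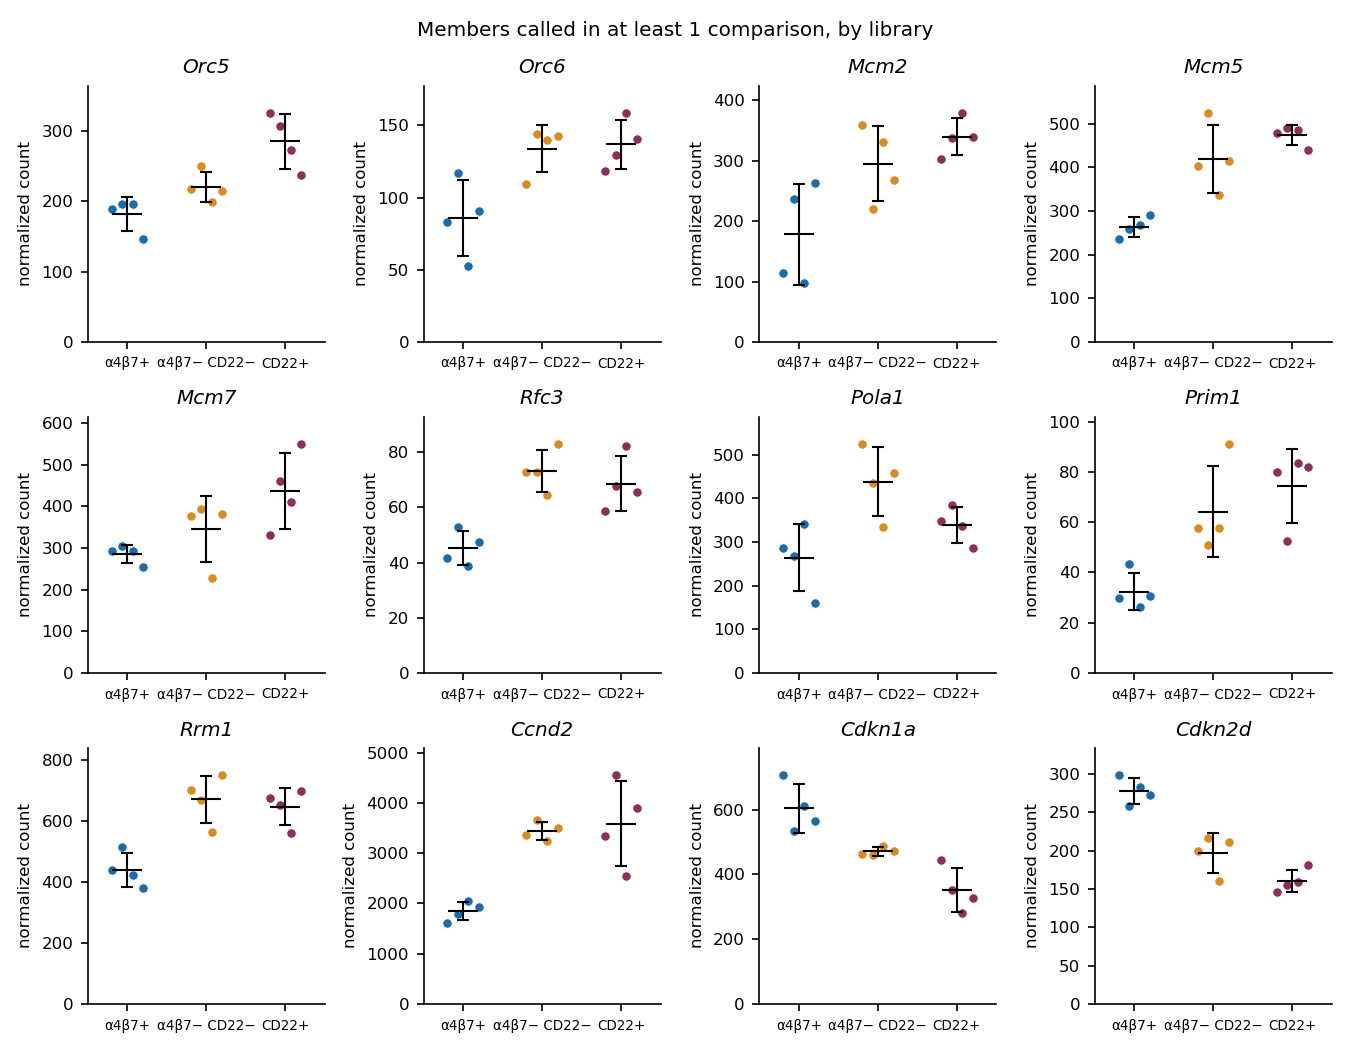
Normalized count of the 12 members called in at least 1 comparison, with 1 point per library in each subset and the mean ± SD (n = 4) in black, on axes that start at 0. The α4β7+ mean is the lowest for the 10 members called higher and the highest for Cdkn1a and Cdkn2d. The libraries of Pola1 overlap those of α4β7+ in both later subsets, and those of Orc6, Mcm2, and Mcm7 do so in α4β7− CD22− only.

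Of the 15 fork genes, 3 were called higher in α4β7− CD22− and 1 in CD22+ against α4β7+, beside 3.70% and 5.60% of all genes, and none was called lower, beside 4.35% and 6.39%. The 1 call in CD22+ is near that share. The 3 calls in α4β7− CD22− (Rfc3, Pola1, and Prim1) were all lost without α4β7+ replicate 4 or without α4β7− CD22− replicate 4, and 1 was left without α4β7+ replicate 1 or 3 or α4β7− CD22− replicate 1. The 1 call in CD22+ became 2 without α4β7+ replicate 2 or 4 or CD22+ replicate 4. The median log2 fold change was 0.30 and 0.26. Prim1 (chr10:128015168-128030037), the primase subunit that makes the RNA primer of each new strand, was at 29.7, 43.2, 26.1, and 30.6 normalized counts in the α4β7+ libraries, 57.6, 50.9, 57.6, and 91.0 in the α4β7− CD22− libraries, and 79.9, 52.6, 83.7, and 81.9 in the CD22+ libraries. The 8 libraries of the later subsets all lay above the α4β7+ libraries. Prim1 rose by 0.95 (SE 0.26, adjusted p = 0.0235) in α4β7− CD22− and by 1.18 (SE 0.26, adjusted p = 0.00454) in CD22+, a 2.26-fold change. The first of these calls was lost without α4β7+ replicate 1, 3, or 4 or α4β7− CD22− replicate 4 (adjusted p 0.0505 to 0.0796), and the second was kept whichever library was left out.

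Pola1 (chrX:93304767-93632155), the catalytic subunit of DNA polymerase α that extends this primer, was at 287, 267, 342, and 160.3 normalized counts in the α4β7+ libraries, 523, 435, 333, and 458 in the α4β7− CD22− libraries, and 347, 385, 336, and 286 in the CD22+ libraries. Here α4β7− CD22− was the highest subset, although its replicate 3 lay below α4β7+ replicate 3. Pola1 rose by 0.76 (SE 0.20, adjusted p = 0.0208) in α4β7− CD22− and was at 0.40 (SE 0.20, adjusted p = 0.196) in CD22+. Without α4β7+ replicate 4, the lowest library, the rise was 0.54, and without α4β7− CD22− replicate 1 or 4 the adjusted p was 0.0649 or 0.0532, so that the call was lost in each case.

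Rfc3 (chr5:151642756-151651242), a subunit of the loader of the Pcna clamp, was at 41.7, 53.1, 38.9, and 47.5 normalized counts in the α4β7+ libraries, 72.8, 72.7, 64.5, and 82.9 in the α4β7− CD22− libraries, and 58.6, 67.8, 82.3, and 65.7 in the CD22+ libraries. All α4β7+ libraries lay below the others, and the later subsets overlapped. Rfc3 rose by 0.68 (SE 0.20, adjusted p = 0.0345) in α4β7− CD22−, and its 0.59 (SE 0.20, adjusted p = 0.0539) in CD22+ missed on p. The call was lost without α4β7+ replicate 1, 3, or 4 or α4β7− CD22− replicate 1, 2, or 4 (adjusted p 0.0551 to 0.0949) and under the replicate block (adjusted p = 0.0552), and in CD22+ the gene was called without α4β7+ replicate 2 (log2 fold change 0.66).

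The other loader subunits were not called in any comparison. In both comparisons with α4β7+ the estimates of Rfc2, Rfc4, and Rfc5 were above 0 and those of Rfc1 below 0. Differences between these genes were not tested. Rfc2 was the most abundant at a mean of 2009 ± 190.1, 2435 ± 231, and 2315 ± 119 (SD, n = 4) in the 3 subsets, and its log2 fold change in α4β7− CD22− of 0.28 (SE 0.09, adjusted p = 0.0447) was under the fold threshold. Rfc1, the large subunit, was at −0.49 (SE 0.15, adjusted p = 0.0275) in CD22+, also under the fold threshold, and was called lower without CD22+ replicate 3 (−0.64). Rfc4 and Rfc5 were at 0.73 (95% interval 0.029 to 1.43) and 0.57 (95% interval 0.13 to 1.02) in CD22+ and were not called, although Rfc4 was called without α4β7+ replicate 4 (1.00) and Rfc5 without CD22+ replicate 4 (0.73).

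Pcna, the sliding clamp, is often used as a label of dividing cells and also serves DNA repair. Its mean was 764 ± 83.8, 848 ± 62.5, and 850.3 ± 145 normalized counts (SD, n = 4), and the log2 fold change was 0.15 (95% interval −0.11 to 0.41) and 0.15 (95% interval −0.12 to 0.41). The single-strand binding subunits Rpa1, Rpa2, and Rpa3 and the polymerase subunits Pold1 and Pole were not called, with log2 fold changes between −0.38 (Pole in α4β7− CD22−) and 0.31 (Rpa2 in CD22+). Lig1 and Fen1, which join and trim the fragments of the lagging strand, were at 0.44 (SE 0.12, adjusted p = 0.02) and 0.42 (SE 0.16, adjusted p = 0.103) in α4β7− CD22− and at 0.26 (SE 0.12, adjusted p = 0.149) and 0.47 (SE 0.16, adjusted p = 0.0549) in CD22+. Of these only Lig1 in α4β7− CD22− passed on p, with no overlap of its libraries, and it missed the fold threshold.

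The nucleotide supply genes differed among themselves. Rrm1 (chr7:102441695-102469771), the large subunit of ribonucleotide reductase, was at 438, 515, 423, and 378 normalized counts in the α4β7+ libraries, 701, 667, 565, and 749 in the α4β7− CD22− libraries, and 675, 652, 559.9, and 697 in the CD22+ libraries. The α4β7+ libraries were all below the 8 others. Rrm1 rose by 0.61 (SE 0.12, adjusted p = 0.00275) in α4β7− CD22−, and in CD22+ its 0.56 (SE 0.12, adjusted p = 0.00325) passed on p and missed the fold threshold at 1.48-fold. The rise was under the fold threshold without α4β7+ replicate 4 (0.54) or α4β7− CD22− replicate 4 (0.56), and the gene was called in CD22+ without α4β7+ replicate 2 (0.64) or CD22+ replicate 3 (0.63).

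Rrm2, the small subunit whose level normally limits the enzyme in S phase, was far lower. It had a mean of 40.0 ± 7.20, 32.8 ± 24.9, and 38.3 ± 15.2 (SD, n = 4) and log2 fold changes of −0.51 (95% interval −1.43 to 0.41) and −0.13 (95% interval −1.05 to 0.79). Per kb of transcript the level of Rrm1 was 146 and that of Rrm2 16.9 over the 12 libraries. Tyms, thymidylate synthase, was at −0.46 (SE 0.13, adjusted p = 0.0285) in α4β7− CD22−, with every library under every α4β7+ library, which passed on p and missed the fold threshold, and at −0.12 (SE 0.13, adjusted p = 0.598) in CD22+.

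None of the 6 S and M phase markers was called in any comparison by limma, and none had an unadjusted p under 0.05 in either comparison with α4β7+. Of the 15249 genes tested, 2074 were higher and 2056 lower at that p in α4β7− CD22−, and 2448 and 2426 in CD22+. With 3.70% of all genes called higher and 4.35% lower in α4β7− CD22−, and 5.60% and 6.39% in CD22+, no call among 6 genes is near the background. Mki67, a protein of the chromosome surface used to label dividing cells, was at 798, 1227, 873, and 1023 normalized counts in the α4β7+ libraries, 740.2, 610.1, 785, and 1078 in the α4β7− CD22− libraries, and 799.6, 766, 1126, and 1012 in the CD22+ libraries. Top2a, the topoisomerase that untangles chromosomes, was at 342, 528, 308, and 342 normalized counts in the α4β7+ libraries, 315, 241, 276, and 295 in the α4β7− CD22− libraries, and 226, 332, 447, and 534 in the CD22+ libraries. The subsets overlapped for both, α4β7+ replicate 2 was the highest library for Mki67, and CD22+ replicate 4 was the highest for Top2a. The log2 fold change was −0.30 (95% interval −0.68 to 0.082) and −0.081 (95% interval −0.46 to 0.30) for Mki67 and −0.40 (95% interval −0.90 to 0.091) and −0.02 (95% interval −0.52 to 0.47) for Top2a. In α4β7+ libraries 1 to 4 the macrophage and dendritic cell markers summed to 5478, 7710.0, 6418, and 7410.3. This was the order of Mki67 but not of Top2a. In CD22+ libraries 1 to 4 they summed to 5172, 6940.2, 7606, and 11486, the order of Top2a but not of Mki67. In α4β7− CD22− neither gene stood in the order of these markers. The B and plasma cell markers of α4β7+ libraries 1 to 4, at 15458, 33579, 19241, and 24988, also stood in the order of Mki67. The part of RNA from these cells in the levels of Mki67 and Top2a was not tested.

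Ccna2, Ccnb1, and Ccnb2, the cyclins of S phase and mitosis, and their kinase Cdk1 were each under 86 normalized counts in all 12 libraries, and their lowest library values lay between 9.12 for Ccnb2 and 16.5 for Cdk1. Their summed level was 76.8, 196, 210.2, and 244 in α4β7+ libraries 1 to 4, 99.6, 83.7, 149, and 167 in α4β7− CD22−, and 98.7, 115, 258, and 190.3 in CD22+. The ranges of the 3 subsets overlapped, and α4β7+ alone held the lowest library and the second highest of all. Log2 fold changes in α4β7− CD22− were −0.21 (95% interval −1.26 to 0.83) for Ccna2, −0.94 (95% interval −1.93 to 0.041) for Ccnb1, −0.53 (95% interval −1.72 to 0.66) for Ccnb2, and −0.43 (95% interval −1.28 to 0.42) for Cdk1. Ccnb1 was called lower there only when α4β7+ replicate 1 was left out, at −1.42 (adjusted p = 0.0237), and 51.9% of its transcript is shared with Gm12856, listed at under 1 normalized count.

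This sum moved with RNA of another cell type. The 10 epithelial markers summed to 4049, 5015, 6247, and 7080.4 in the same α4β7+ libraries, 4517, 3600.2, 4991, and 5827 in α4β7− CD22−, and 3076, 3893, 8749, and 5807 in CD22+. Within each subset the 4 libraries stood in the same order for the cyclins with Cdk1 as for the epithelial markers, and CD22+ replicate 3 was the highest of all 12 in both. No epithelial marker was at 0, Olfm4 was called higher in both comparisons with α4β7+, and the other 9 were not called. The summed licensing genes did not follow this order: in α4β7+ the highest sum was in replicate 2 and in α4β7− CD22− also in replicate 2, the library with the lowest epithelial sum of its subset. The sum of T and innate lymphoid cell markers was lower in α4β7− CD22− than in α4β7+ libraries without overlap, with 3 of the 8 markers called lower, in the comparison in which all 6 S and M phase markers had negative estimates. The Paneth sum was also highest in CD22+ replicate 3. The part of epithelial, Paneth, and lymphoid RNA in these results was not tested.

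**Figure D3:**
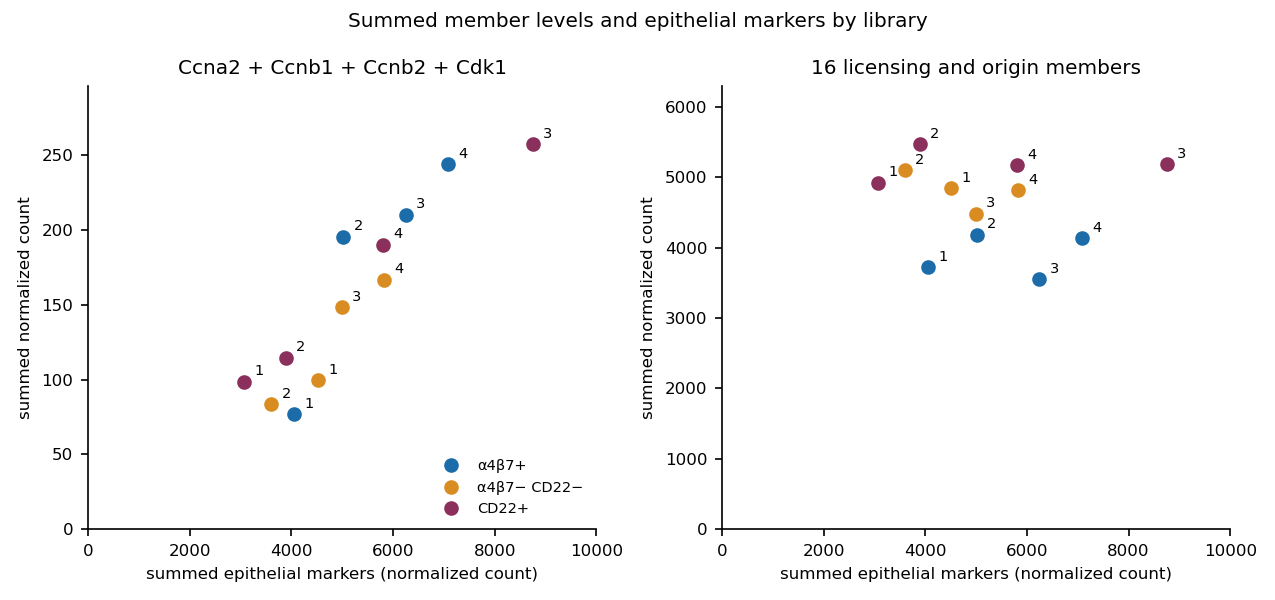
Summed normalized count of Ccna2, Ccnb1, Ccnb2, and Cdk1 (left) and of the 16 licensing and origin genes (right) against the summed epithelial markers, with 1 point per library labelled by its replicate number and coloured by subset. On the left the libraries rise together from 76.8 to 258 without separation of the subsets, and on the right the 4 α4β7+ libraries lie below the 8 others, at epithelial sums of 4049 to 7080 within a whole range of 3076 to 8749.

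Of the 8 G1 genes, 1 was called higher in each comparison with α4β7+, a count near the shares of all genes. Ccnd2 (chr6:127125162-127152193), the D cyclin of many blood cells, was at 1611, 1798, 2046, and 1932 normalized counts in the α4β7+ libraries, 3366, 3663, 3241, and 3490.0 in the α4β7− CD22− libraries, and 3347, 4545, 2545, and 3905 in the CD22+ libraries. Every library of the later subsets was above every α4β7+ library, and CD22+ was the most spread. Ccnd2 rose by 0.90 (SE 0.14, adjusted p = 0.000409) in α4β7− CD22− and by 0.93 (SE 0.14, adjusted p = 0.000172) in CD22+, changes of 1.87-fold and 1.91-fold, and both calls were kept whichever library was left out. The gene overlaps 9330179D12Rik and Gm43126 on the genome.

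The other D cyclins did not pass. Ccnd3 was at 1839, 1766, 2607, and 1892 normalized counts in the α4β7+ libraries, 2374, 2032, 2072, and 2669 in the α4β7− CD22− libraries, and 2139.6, 1857, 1854, and 2712 in the CD22+ libraries. Ccnd1 was at 59.6, 52.7, 59.7, and 142 normalized counts in the α4β7+ libraries, 41.8, 29.1, 32.5, and 82.5 in the α4β7− CD22− libraries, and 36.8, 39.6, 103, and 123 in the CD22+ libraries. All subsets overlapped for both, α4β7+ replicate 3 stood apart for Ccnd3 and α4β7+ replicate 4 for Ccnd1. Log2 fold changes in CD22+ were 0.08 (95% interval −0.23 to 0.39) for Ccnd3 and −0.13 (95% interval −1.10 to 0.84) for Ccnd1, a far wider interval at a far lower count.

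Cdk2 and Cdk4, the kinases of the G1 and S transitions, were at 0.14 (95% interval −0.04 to 0.32) and −0.28 (95% interval −0.67 to 0.11) in α4β7− CD22− and at −0.0051 (95% interval −0.18 to 0.17) and −0.34 (95% interval −0.73 to 0.049) in CD22+. Rb1, the brake on E2f factors, had means of 1289 ± 179, 1263 ± 313, and 1602 ± 269 (SD, n = 4), and E2f1 of 151 ± 28.5, 193 ± 24.9, and 181 ± 27.0. Neither was called, with log2 fold changes in CD22+ of 0.31 (95% interval −0.059 to 0.67) and 0.26 (95% interval −0.10 to 0.62). Ccne1, the cyclin that starts S phase with Cdk2, was the lowest of the group at 4.32 to 27.9 normalized counts.

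The CDK inhibitors split by gene. Cdkn1a (chr17:29090976-29100727), the p53 target p21, was at 705, 533, 612, and 564 normalized counts in the α4β7+ libraries, 463, 460.4, 489, and 471 in the α4β7− CD22− libraries, and 444, 352, 281, and 326 in the CD22+ libraries. The subsets did not overlap at any step, with α4β7+ highest and CD22+ lowest. Cdkn1a fell by 0.79 (SE 0.13, adjusted p = 0.000484) on the log2 scale in CD22+, and in α4β7− CD22− it was at −0.35 (SE 0.13, adjusted p = 0.0958), which was not called.

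Cdkn2d (chr9:21288410-21291407), the Cdk4 inhibitor p19, was at 298, 258, 282, and 273 normalized counts in the α4β7+ libraries, 199, 217, 159.8, and 211 in the α4β7− CD22− libraries, and 146, 155, 159, and 181 in the CD22+ libraries. The α4β7+ libraries were all above the 8 others, and α4β7− CD22− replicate 3 lay within the CD22+ range. Cdkn2d fell by 0.79 (SE 0.13, adjusted p = 0.000521) in CD22+, and its −0.50 (SE 0.13, adjusted p = 0.0194) in α4β7− CD22− passed on p and missed the fold threshold. Both calls in CD22+ were kept whichever library was left out.

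Cdkn1b, the inhibitor p27 that holds resting cells out of the cycle, was the most abundant inhibitor. It was at 4811, 4776, 4586, and 4718 normalized counts in the α4β7+ libraries, 4905, 5356, 5522, and 5364 in the α4β7− CD22− libraries, and 4874, 4715, 5627, and 4924 in the CD22+ libraries. The α4β7− CD22− libraries were all above α4β7+ and the CD22+ libraries overlapped both, over a narrow range. Log2 fold changes were 0.16 (95% interval 0.018 to 0.30) and 0.089 (95% interval −0.054 to 0.23), and both intervals lie within a change of 1.5-fold in either direction. Cdkn2c, the Cdk4 inhibitor p18, was at 27.2, 18.9, 34.7, and 57.1 normalized counts in the α4β7+ libraries, 30.9, 32.4, 18.0, and 22.1 in the α4β7− CD22− libraries, and 25.8, 38.8, 30.7, and 39.6 in the CD22+ libraries. Its subsets overlapped and the log2 fold change in CD22+ was 0.059 (95% interval −0.70 to 0.82).

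Levels can be compared between genes only per length of transcript, here as normalized counts per kb of the longest basic protein-coding transcript of GENCODE M21, averaged over the 12 libraries. Cdkn1b stood first of the 52 at 1102, followed by Ccnd3 at 1018, Pcna at 541, Ccnd2 at 467, and Rfc2 at 451. Of their transcripts, Pcna shares 51.4% with Pcna-ps2, listed at up to 20.6, and Ccnd3 shares 41.6% with Ccnd3-ps, listed at up to 5.64. On the genome Ccnd3 overlaps Bysl and Rfc2 overlaps Lat2. The lowest were Cdc6 at 6.00, Ccne1 at 6.34, Orc1 at 7.29, and Cdk1 at 9.27. By role, the median level per kb was 189 for CDK inhibitors, 188 for G1 genes, 96.1 for nucleotide supply, 89.3 for licensing, 82.8 for fork genes, and 19.1 for S and M phase markers. The 6 MCM genes, whose proteins form a ring with 1 copy of each, ranged from 80.3 for Mcm2 to 235 for Mcm4, with Mcm6 at 97.6, Mcm5 at 114, Mcm7 at 120.3, and Mcm3 at 122. Mki67 at 89.8 and Top2a at 66.8 lay well above the other 4 members of their group, which were at 21.7 or less.

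**Figure D4:**
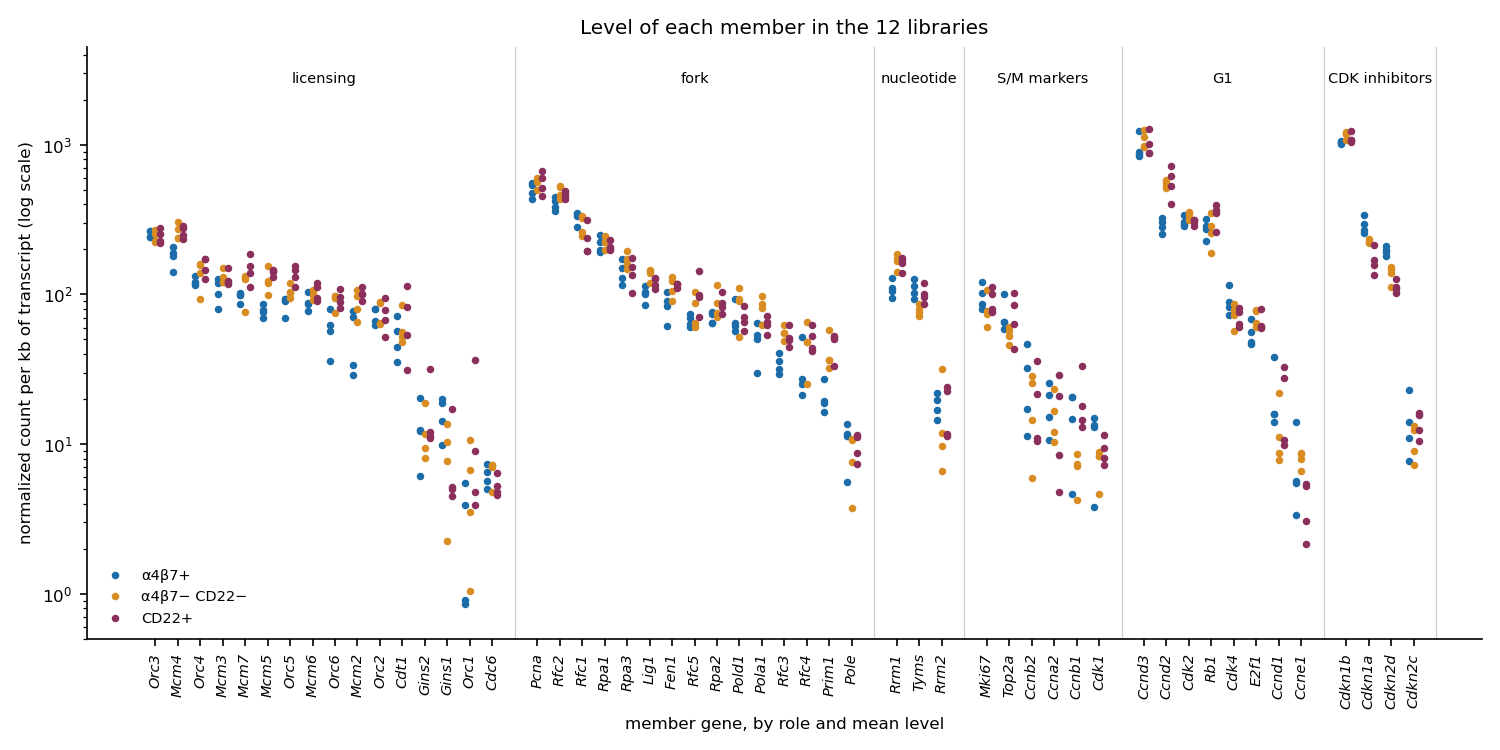
Normalized count per kb of transcript, on a log scale, of the 52 members in each of the 12 libraries, ordered by role and by mean level and coloured by subset. Cdkn1b and Ccnd3 stand at the top with means of 1102 and 1018 per kb, licensing and fork genes lie around medians of 89.3 and 82.8, and Ccna2, Ccnb1, Ccnb2, and Cdk1 have means of 21.7 or less.

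Between CD22+ and α4β7− CD22− no member was called by limma in either direction, where 0.210% of all genes were called higher and 0.393% lower. The median log2 fold change of the members was 0.019, beside −0.0014 over all genes. At an unadjusted p under 0.05, 6 of the 52 members differed, where 9.67% of all genes did: Orc5, Tyms, and Ccnb1 with higher and Rfc1, Cdkn1a, and Cdkn2d with lower values in CD22+. Libraries did not overlap and were higher for Ccnb1, at 1.42 (SE 0.46, adjusted p = 0.234), where 2.66% of all genes were so. In the same comparison all 4 tested Paneth cell markers were higher at an unadjusted p under 0.05 by limma, with a median log2 fold change of 1.52, as were 3 of 8 T and innate lymphoid cell markers, of which Cd8a and Cd3g did not overlap. None of these markers was called, and their part in the value of Ccnb1 was not tested. Member libraries did not overlap and were lower for 3 members, where 3.72% of all genes were so, namely Cdkn1a at −0.44 (SE 0.13, adjusted p = 0.177), Ccne1 at −0.98 (SE 0.48, adjusted p = 0.55), and Cdk2 at −0.14 (SE 0.08, adjusted p = 0.655).

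The E2F letters did not separate the members called from those not called. Of the 9 genes called higher with a promoter entry, 4 held them (Mcm5, Mcm7, Rfc3, and Pola1), as did 10 of the 34 members with an entry that were not called higher. Among licensing genes, Orc5, Orc6, and Mcm2 were called without a match, and Mcm3, Mcm6, Orc1, Orc3, Cdc6, and Cdt1 held a match and were not called. The letters are a description of these windows and not a measure of binding.

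A further 114 genes of the same pathways were read as context, of which 113 were tested. Of 34 other replication genes, 3 were called higher in α4β7− CD22− and 9 in CD22+ against α4β7+, beside 3.70% and 5.60% of all genes, and none lower, with a median log2 fold change of 0.29 and 0.31. Cdc7 and Dbf4, the kinase that fires licensed origins and its activator, were called in both. Cdc7 was at 37.2, 46.4, 70.5, and 40.5 normalized counts in the α4β7+ libraries, 124, 97.5, 117, and 112 in the α4β7− CD22− libraries, and 120.3, 121, 78.4, and 116 in the CD22+ libraries. Its α4β7+ libraries were all lower than the rest, with log2 fold changes of 1.23 (SE 0.23, adjusted p = 0.00187) and 1.17 (SE 0.23, adjusted p = 0.00172). Dbf4 was at 141, 226, 193, and 159.9 normalized counts in the α4β7+ libraries, 375, 286, 311, and 346 in the α4β7− CD22− libraries, and 403, 432, 332, and 326 in the CD22+ libraries. It showed the same separation, at 0.88 (SE 0.16, adjusted p = 0.00153) and 1.06 (SE 0.16, adjusted p = 0.000195).

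Timeless, a fork protection protein, was also called in both comparisons, at 1.04 (SE 0.19, adjusted p = 0.0014) and 1.10 (SE 0.19, adjusted p = 0.000563). In CD22+ against α4β7+ the test was also passed by Mcm8 and Mcm9, which form a helicase used in DNA repair, by Pole2, a subunit of polymerase ε, by Clspn, the checkpoint adaptor claspin, by Ticrr, an origin firing factor, and by Wdhd1, which ties polymerase α to the fork. Of these the log2 fold change was 0.71 (SE 0.13, adjusted p = 0.000905) for Mcm9, 0.93 (SE 0.26, adjusted p = 0.0172) for Clspn, and 0.91 (SE 0.21, adjusted p = 0.00672) for Ticrr. None of these genes was called between CD22+ and α4β7− CD22−. Of 14 other nucleotide supply genes, 1 was called, a count near the 4.35% of all genes called lower in that comparison. It was Nme1, which fell by 0.59 (SE 0.18, adjusted p = 0.0391) in α4β7− CD22−.

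Of 30 other mitosis genes, 1 was called higher and 1 lower in each comparison with α4β7+. These counts are near the shares of all genes, which were 3.70% higher and 4.35% lower in α4β7− CD22− and 5.60% and 6.39% in CD22+, and the genes are given only as values. Kif23, a kinesin of the central spindle, was at 2949, 2494, 2297, and 2628 normalized counts in the α4β7+ libraries, 3749, 4586, 3878, and 4478 in the α4β7− CD22− libraries, and 4733, 4351, 4325, and 4507 in the CD22+ libraries. Its α4β7+ libraries were all lower than the rest, and the log2 fold changes were 0.69 (SE 0.09, adjusted p = 8.37e-05) and 0.79 (SE 0.09, adjusted p = 9.98e-06). Its transcript length and shared sequence were not examined, so its level was not compared with that of the mitotic cyclins. Nusap1, a spindle protein, was between 42.3 and 54.9 in α4β7+, between 10.4 and 38.8 in α4β7− CD22−, and between 9.90 and 31.3 in CD22+ libraries. All α4β7+ libraries were above the rest, and it fell by 1.31 (SE 0.42, adjusted p = 0.0473) and 1.23 (SE 0.42, adjusted p = 0.0486). Of 35 other G1 and arrest genes, 1 was called lower and none higher in each comparison with α4β7+, also near or below those shares. E2f3 fell by 1.79 (SE 0.55, adjusted p = 0.0419) in α4β7− CD22−, with α4β7+ libraries from 52.3 to 297, and was at −1.35 (SE 0.55, adjusted p = 0.104) in CD22+. Ccng2, a cyclin-like gene of arrested cells, fell by 0.60 (SE 0.10, adjusted p = 0.000464) in CD22+.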

How the data were processed

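RNA was measured by total RNA sequencing with a strand-preserving low-input kit (SMARTer Pico) in 12 libraries, 4 for each of 3 eosinophil subsets. Per the submitters' processing notes, the authors trimmed reads with Trimmomatic 0.39, estimated transcript abundance with kallisto 0.46.1 against GRCm38 (mm10), and scaled the values with DESeq2 1.38.2. The deposited signal is a normalized count per gene and is not whole, and limma on log2 values was chosen here instead of a count model. The depth behind each value was estimated only from its smallest steps, at 0.852 to 1.16 normalized counts for 1 read, so genes near this level carry little precision. The strand setting of the counting is not given in the sources used here.

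After removal of genes whose mean over the libraries was 10 normalized counts or less, log2(normalized count + 1) was tested with limma 3.58.1 (R 4.3.3), with trend, all 12 libraries in 1 model, and Benjamini-Hochberg adjustment within each comparison. Fold changes are on this scale, which understates the change of low genes. A call needed an adjusted p of 0.05 or less and a fold change of at least 1.5, and intervals are at 95%. The fit was also run on simulated data, in which changes were larger than most of those called here. Every simulated gene had the same spread setting. That run therefore cannot show how calls near the fold threshold behave. The members and gene lists were chosen with earlier results of these data known. Values in every library are given for members called in at least 1 comparison and for Mki67, Top2a, Mcm2 to Mcm7, the D cyclins, and the CDK inhibitors, and related genes are named where they were called.

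Loci and transcript lengths were taken from GENCODE M21, in which all 36047 identifiers matched, and transcript sequence shared with other genes was measured with BLAST 2.17.0 at 90% identity or more over at least 50 bases. Promoters were read from RefSeq (GRCm38.p6), with no entry for Ccna2, Rb1, Gins2, Ccnd1, Pole, Ccnd2, Gins1, Rfc2, and Mcm4. Figures were drawn with matplotlib 3.10.9 under Python 3.11.15.

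Replicate numbers run from 1 to 4 in each subset, and the labels do not say that a number marks the same mice. Deviations from the group means of same-numbered CD22+ and α4β7− CD22− libraries correlated at 0.135 to 0.203, each library best with its own number, so these were treated as pairs in an alternative fit. The alternatives were other pseudocounts, filters, scalings, and variance models, the adjusted p alone, only the compared subsets, the replicate block, and each library left out in turn.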

Additional observations from a re-analysis of the deposited data

Results flagged for a closer look

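Among the 63 groups of 4 libraries behind the members given in every library, 8 held a library whose gap to the nearest other exceeded Dixon's 95% limit for the gap as a share of the group's range, and chance sets apart about 1 in 20 groups. Among α4β7+ libraries, Orc5 was lowest in replicate 4 at 147, with 189 in the next library. Top2a was highest in α4β7+ replicate 2 at 528, with 342 in the next. Ccnd1 was highest in α4β7+ replicate 4 at 142, with 59.7 in the next. Ccnd3 was highest in α4β7+ replicate 3 at 2607, with 1892 in the next.

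Among α4β7− CD22− libraries, Orc6 was lowest in replicate 1 at 109.6, with 139.6 in the next library, Mcm7 was lowest in replicate 3 at 227, with 376 in the next, and Prim1 was highest in replicate 4 at 91.0, with 57.6 in the next. In CD22+ libraries Prim1 was lowest in replicate 2 at 52.6, with 79.9 in the next. No library was set apart in more than 2 of these groups.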

How the results depend on the processing

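In α4β7− CD22− against α4β7+, the 6 higher calls ranged from 3 to 9 with each library left out in turn, with 3 (Mcm5, Ccnd2, and the newly called Mcm4) without α4β7− CD22− replicate 4, and the lower calls from 0 to 1, the 1 being Ccnb1 without α4β7+ replicate 1. By adjusted p alone 2 members, Tyms and Cdkn2d, were lower there. In CD22+ against α4β7+, 11 members were higher after rescaling to the 75th percentile, and leaving out libraries gave 5 to 10 higher and 2 to 3 lower. Between CD22+ and α4β7− CD22− the count was 0 under every alternative run. Of 15 gene calls, 7 held under every alternative: Ccnd2 in both comparisons with α4β7+, and Mcm2, Mcm5, Prim1, Cdkn1a, and Cdkn2d in CD22+. Apart from left-out libraries, the others were lost for Rfc3 without the filter (adjusted p = 0.0793) or with only the 2 subsets compared (0.0677), for Orc6 with only those subsets (0.0639), and for Mcm7 with a pseudocount of 10, quantile normalization, or no trend. No direction reversed. The cause of these changes was not tested.

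With the replicate block, limma called 5 members higher and 0 lower in α4β7− CD22−, 7 higher and 2 lower in CD22+ against α4β7+, and 0 in either direction between CD22+ and α4β7− CD22−. The call lost was Rfc3 (adjusted p = 0.0552), and the block changed no other call of a member. In the comparisons with α4β7+ same-numbered libraries correlated at 0.043 to 0.137 and at −0.0586 to 0.182, and 2 of 4 correlated best with their own number.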

Other observations

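The balance between D cyclins differed between subsets. The ratio of Ccnd2 to Ccnd3, as normalized counts, was 0.876, 1.02, 0.785, and 1.02 in α4β7+ libraries 1 to 4, 1.42, 1.80, 1.56, and 1.31 in α4β7− CD22−, and 1.56, 2.45, 1.37, and 1.44 in CD22+. Every α4β7+ library lay below every other library, and the later subsets overlapped. The ratio of Cdkn1b to Cdkn1a was 6.82 to 8.96 in α4β7+, 10.6 to 11.6 in α4β7− CD22−, and 11.0 to 20.0 in CD22+ libraries. Neither ratio was corrected for transcript length, and both were chosen after the values were seen and carry no test.

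Summed by role, the 8 G1 genes were at 5759 to 7061 normalized counts in α4β7+, 8084 to 8331 in α4β7− CD22−, and 7294 to 9175 in CD22+ libraries, a sum in which Ccnd2 and Ccnd3 are the most abundant genes. The 4 CDK inhibitors summed to 5515 to 5841, 5598 to 6189, and 5262 to 6098, with overlap of all subsets. The 15 fork genes summed to 6672 to 7451, 7288 to 8493, and 7082 to 7629, also with overlap.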
